A study of Mus musculus with 30 samples.

Results

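Epiblast stem cells of the PWK strain were compared with those of the B6 strain by RNA-seq, as 8 of the 30 samples of the series. The 3 PWK libraries (PWK/PhJ, labelled BioRep698, BioRep695 and 1 with no number that can be matched) were set against the 5 B6 libraries (C57BL/6, replicates 1, 2, 4, 44 and 51). Both strains were grown untreated on feeder cells in an N2B27-based medium with FGF2, Activin A and the tankyrase inhibitor NVP-TNKS656, and the colonies were lifted with collagenase so that feeders stayed behind. A further 3 libraries from B6.129 F1 cells entered the same fit and are given where they place a PWK value. The labels call the libraries biological replicates and do not say whether each is a separate line, so a p-value measures the spread between these libraries.

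Epiblast stem cells are pluripotent cells in the primed state, the state of the epiblast after implantation, and are kept there by FGF and Activin signals. PWK is a wild-derived strain of the subspecies Mus musculus musculus, whereas B6 is largely of Mus musculus domesticus origin, so the genomes differ at many sites. Mouse genomes also hold many processed pseudogenes, copies of mRNAs put back into the genome, most of them of highly expressed genes such as those for ribosomal proteins. A read from a gene can match such a copy as well as the gene, so genes with a pseudogene named after them are kept apart here from those without.

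Total counts lay between 24529054 and 29947841 per library, and levels are given as CPM, counts scaled to a common library size after TMM scaling (trimmed mean of M-values). A level with ± is a mean with its SD over the 5 B6 or 3 PWK libraries (n = 5 and n = 3), and a log2 change, PWK minus B6, has its SE after ±. Of the 12 markers that define primed cells or their first differentiation steps, 0 differed between the strains at an edgeR adjusted p under 0.05 (1 at an unadjusted p under 0.05, and 1 by DESeq2, in both cases Cxcr4, an endoderm marker). Pou5f1, the core pluripotency factor, had 1169 ± 186 CPM in B6 and 1370.0 ± 98.9 CPM in PWK (log2 change 0.23 ± 0.11, edgeR adjusted p = 0.161). Fgf5, the classical marker of the primed epiblast, had 219 ± 46.7 CPM in B6 and 189 ± 18.2 CPM in PWK (log2 change -0.22 ± 0.18, edgeR adjusted p = 0.391). Dnmt3b, a de novo DNA methyltransferase of the primed state, had 1558 ± 373 CPM in B6 and 1308 ± 121 CPM in PWK. Nanog had 102 ± 50.1 CPM in B6 and 139 ± 12.9 CPM in PWK. T, the primitive streak factor, spread widely among the B6 libraries. Its level was 572, 137, 334, 276 and 104 CPM in B6 replicates 1, 2, 4, 44 and 51, and 137, 149.6 and 131 CPM in PWK BioRep698, BioRep695 and the unnumbered PWK library (log2 change -1.03 ± 0.50, edgeR adjusted p = 0.155). Below, values per library are always given in these 2 orders.

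Feeder fibroblast markers had a higher mean in PWK for 20 of 21 genes, and none of these passed the test. Their summed level over 21 genes was 344, 1991, 1004, 2054 and 4739.5 CPM in the B6 libraries and 3949.6, 4824 and 5048 CPM in the PWK libraries, so the strains overlapped, with B6 51 above PWK BioRep698. None of the markers was at 0. The marker with a lower mean was Twist1, a mesenchymal transcription factor, with 15.2 ± 3.24 CPM in B6 and 7.46 ± 1.76 CPM in PWK (log2 change -1.03 ± 0.21, edgeR adjusted p = 0.00418), and passed the test. The B6.129 F1 libraries had 436 to 596 CPM. In the first principal component, with 50.5% of the variance, B6 51 lay nearest to PWK. In bulk RNA, more feeder cells, more RNA per feeder cell and marker RNA from other cells cannot be told apart. A fit with the log2 summed feeder level as a covariate was added after the data were seen, and its values are given where it ends the call of a gene described below. With it Sox2, a core pluripotency factor and 1 of the 12 markers, passed as lower in PWK (log2 change -1.08, edgeR adjusted p = 0.0359). Without it Sox2 had 67.9 ± 28.9 CPM in B6 and 46 ± 1.28 CPM in PWK (log2 change -0.56 ± 0.33, edgeR adjusted p = 0.229). T passed as lower when B6 51 was left out (log2 change -1.24, edgeR adjusted p = 0.0492), and had a log2 change of 0.32 with the covariate.

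**Figure D1:**
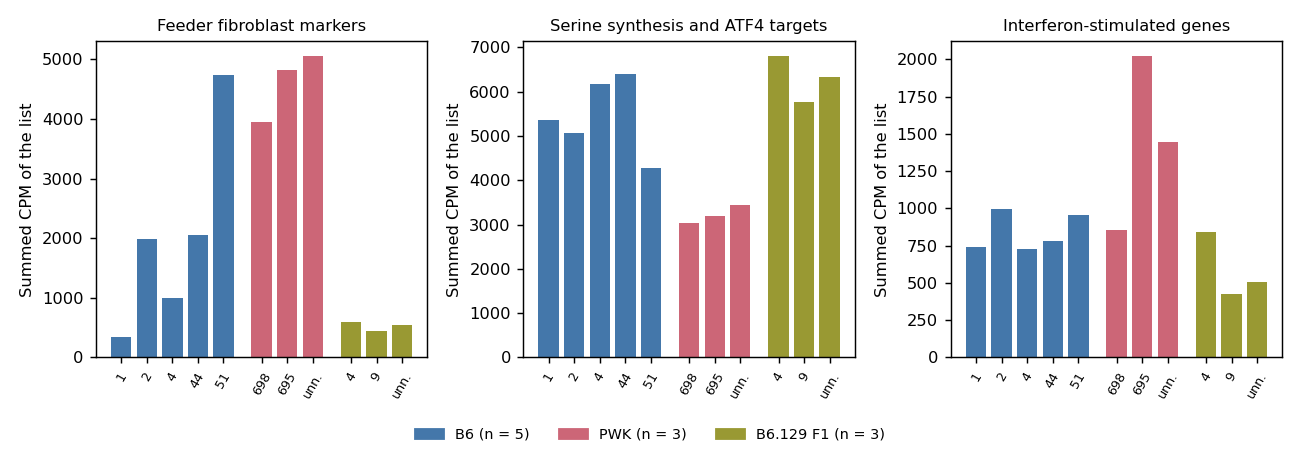
Summed CPM of the genes of 3 lists in each library (bars; x axis, replicate label, with unn. for a library with no matched number): feeder fibroblast markers, serine synthesis and ATF4 targets, and interferon-stimulated genes. Feeder markers lay at 3949.6 to 5048 CPM in PWK and 344 to 4739.5 CPM in B6, the ATF4 list at 3041 to 3429.5 CPM in PWK, below all B6 libraries at 4279.5 to 6402 CPM, and the interferon list was spread within PWK, at 855 to 2020.0 CPM.

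Over all genes, 3923 of 14822 tested, or 26.5%, differed between PWK and B6 at an edgeR adjusted p under 0.05, with 1781 higher and 2142 lower in PWK. The PWK libraries lay outside the B6 range for 32.1% of all genes. Among the 13403 protein-coding genes without a named pseudogene, 1444 were higher and 1925 lower, or 25.1%. Of these, 585 and 592 changed by at least 2-fold. For 4115 of the 13403 (30.7%), no PWK library lay within the range of the B6 libraries. The split between higher and lower depends on the scaling: 45.4% of the called genes were higher with TMM and 56.6% when scaled to the total count. At a fold of at least 2 and TMM, all genes divided into 890 higher and 694 lower. With the feeder level as a covariate, 791 genes without a named pseudogene were higher and 1147 lower, and without PWK BioRep698, PWK BioRep695 or the unnumbered PWK library in turn the counts were 830 to 844 higher and 1164 to 1176 lower.

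More pseudogenes rose than fell in PWK, and more of the genes they are named after fell than rose. The 795 tested pseudogenes divided into 262 that rose in PWK, 66 that fell and the rest that did not pass. Of the 335 genes with a named pseudogene, 16 rose and 121 fell, against 12% higher and 14.5% lower over all genes. Pseudogenes took 2.0 ± 0.252% of the counts in B6, 3.59 ± 0.0864% in PWK and 2.42 ± 0.0609% in B6.129 F1 (SD, n = 5, 3 and 3). Genes with a named pseudogene took 12.6 ± 0.425% in B6, 9.78 ± 0.189% in PWK and 12.4 ± 0.033% in F1 with the same numbers of libraries. Neither share overlapped between PWK and B6, and each difference had p = 0.0179 in a two-sided exact permutation test, the smallest that the 56 splits of 8 libraries allow. With the feeder covariate 213 pseudogenes were higher and 43 lower, and 6 of the genes with a named pseudogene were higher and 96 lower. Without PWK BioRep698, BioRep695 or the unnumbered PWK library, 8, 9 and 9 of these genes were higher.

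The ribosomal protein gene Rps26 shows the pattern most plainly. Its level was 189, 628, 660.4, 614 and 674 CPM in the B6 libraries and 27.4, 32.5 and 35.5 CPM in the PWK libraries (log2 change -4.12 ± 0.43, edgeR adjusted p = 8.68e-05). Rps26-ps1, a pseudogene on chromosome 8, had 1.98, 3.06, 3.68, 1.44 and 0 CPM in B6 and 620.4, 597 and 693 CPM in PWK. The summed counts of both had 555 ± 205 CPM in B6 and 669 ± 52.9 CPM in PWK, a difference that did not pass the test (log2 change 0.27 ± 0.34, edgeR adjusted p = 0.586). Npm3, a histone chaperone, fell from 122 to 52.1 CPM while Npm3-ps1 stood at 60.4, 52.9 and 57.4 CPM in PWK and at most 0.11 CPM in B6. Their sum did not pass the test (log2 change -0.16 ± 0.15, edgeR adjusted p = 0.466). Vcp, the AAA ATPase that extracts ubiquitinated proteins, fell from 948 to 466 CPM, and Vcp-rs on chromosome X rose from 0.905 to 412 CPM. That sum did not pass either (log2 change -0.11 ± 0.066, edgeR adjusted p = 0.241). In B6.129 F1 cells the 3 pseudogenes were at 1.33, 0.059 and 0.827 CPM. The genes' own fall and the pseudogenes' rise were thus of like size in PWK, while both other strains had almost no counts at these pseudogenes.

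Genes were also summed with the pseudogenes named after them. Over 272 families of a gene and its named pseudogenes, 106 genes were lower alone, and 92 of these stayed lower when summed. In 51 of the 92 the pseudogenes held at least 1% of the family's counts in a strain. In the other 41 they held less, so the sum is nearly the gene itself. The remaining 14 that were lower alone did not pass as a sum, 4 genes that had not passed alone were higher as a sum and 1 was lower. The 14 were Ap2m1, Ap3m1, Ctdsp2, Eef2, Gpx2, Itpa, Ncoa4, Npm3, Ptges3, Rpl17, Rps19, Rps26, Tmem41b and Vcp. Of these, Ap2m1, Ap3m1, Ctdsp2, Gpx2, Ncoa4 and Tmem41b lost the call of the gene alone with the feeder covariate, and they, Eef2, Ptges3 and Rps19 lost it without 1 of the PWK libraries. Rps18 fell from 860.5 to 108 CPM (log2 change -3.00 ± 0.073, edgeR adjusted p = 7.99e-10). With its 4 pseudogenes it fell from 875 to 674 CPM (log2 change -0.38 ± 0.059, edgeR adjusted p = 0.00106), a remainder that still passed. Rps2 had a summed log2 change of -0.23 against -1.56 alone. For Tpm3, an actin-binding tropomyosin, it was -0.37 against -1.64. Rpl7a, the ribosomal protein gene of the large subunit, kept more of its change, with -1.82 against -2.48. Gapdh, the glycolytic enzyme often used as a loading control, had 4593, 5822, 5147, 5924 and 5901 CPM in B6 and 183, 141 and 138 CPM in PWK (log2 change -5.15 ± 0.14, edgeR adjusted p = 2.55e-09). Gapdh-ps16 on chromosome 8, listed in the gene tables as Gm3272, had 14.5, 12.1, 9.86, 13.3 and 13.6 CPM in B6 and 3317, 3043 and 3334 CPM in PWK, the largest gain in CPM of the rows tested. With its 3 named pseudogenes Gapdh summed to 5488 ± 587 CPM in B6 and 3389.5 ± 176 CPM in PWK (log2 change -0.70 ± 0.088, edgeR adjusted p = 0.000291). The summed fall was thus much smaller than that of Gapdh alone and still passed. Pseudogenes that no table names after a gene could not be added to one.

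The pseudogenes with the largest changes had no counts to speak of in B6. Rpl7a-ps11 had 0 CPM in all 5 B6 libraries and 172, 159 and 153 CPM in the PWK libraries, at least 1437-fold higher when B6 is set at 3 counts per library. Rpl17-ps5 had 202, 189.5 and 201 CPM in PWK and at most 0.192 CPM in B6. Rps12-ps10 had 153, 140.0 and 149 CPM in PWK and at most 0.168 CPM in B6. The reverse was rarer. Cbx3-ps6 fell from 19.6 to 0.124 CPM and Rpl15-ps3 from 280.2 to 17.8 CPM. Llph-ps2 fell from 17.3 to 4.81 CPM and Rps12-ps3 from 343 to 151 CPM. Genes with a named pseudogene that rose changed less. Tubb2a, a beta-tubulin, had 9.57 CPM in B6 and 37 CPM in PWK. Hadhb, a mitochondrial fatty acid oxidation enzyme, had 32.4 CPM in B6 and 47.8 CPM in PWK. Bloc1s2, a lysosomal trafficking subunit, had 26.3 CPM in B6 and 37.3 CPM in PWK, and Phf20, a histone reader, 95.8 CPM in B6 and 133 CPM in PWK. Bloc1s2, Hadhb and Tubb2a no longer passed with the feeder covariate (edgeR adjusted p = 0.228, 0.144 and 0.0847). Each of the 3 also lost its call without the unnumbered PWK library or PWK BioRep698. Among those that fell, Mid1, an X-linked ubiquitin ligase gene that lies across the edge of the pseudoautosomal region in B6 mice, had 248, 57.6, 208, 237 and 235 CPM in B6 and 21.1, 29.6 and 20.5 CPM in PWK (log2 change -3.05 ± 0.72, edgeR adjusted p = 0.0114). B6 2 stood far below the other B6 libraries, and the edgeR adjusted p of Mid1 was 0.0534 with the covariate and up to 0.0528 without PWK BioRep698 or the unnumbered PWK library.

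Genes with no named pseudogene could also fall far or move against a near-copy. Eno1, the main enolase of glycolysis, which has no pseudogene named after it in the tables used, fell from 3220.2, 2902, 3919, 4308 and 4115 CPM in the B6 libraries to 198, 169 and 150.4 CPM in PWK (log2 change -4.42 ± 0.16, edgeR adjusted p = 2.58e-08). Its retrotransposed copy Eno1b had 17.2 CPM in B6 and 23.3 CPM in PWK, and no row tested gained as much CPM as Eno1 lost. Amd2, one of a pair of near-identical genes for the polyamine enzyme AdoMet decarboxylase, rose from 1.42, 14.1, 1.29, 9.26 and 1.69 CPM to 137, 129 and 125 CPM (log2 change 4.55 ± 0.72, edgeR adjusted p = 0.00128). Its partner Amd1 fell from 199 to 71 CPM, and the pair summed to 205 ± 41.2 CPM in B6 and 201 ± 20.7 CPM in PWK. Hmga1, a chromatin protein gene, fell from 768 to 229 CPM while Hmga1b had 8.51, 635, 46.1, 510.3 and 8.19 CPM in B6 and 1014, 1015 and 1232 CPM in PWK (log2 change 2.17 ± 1.19, edgeR adjusted p = 0.202). In the mitochondrial genome, mt-Co1 fell from 10418 to 4222 CPM and mt-Co2 from 1111 to 185 CPM, both subunits of cytochrome oxidase, while mt-Cytb rose from 3398 to 4782 CPM. In all, 5 of the 13 mitochondrial genes were higher and 3 lower, with 1 higher with the feeder covariate and 2 without PWK BioRep695 or the unnumbered PWK library. The gene models Gm13340, Gm13341 and Gm13339 stood at 2463, 1097 and 627 CPM in PWK and at 2.65, 0.367 and 0.022 CPM in B6. Whether reads moved between any of these rows was not tested.

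**Figure D2:**
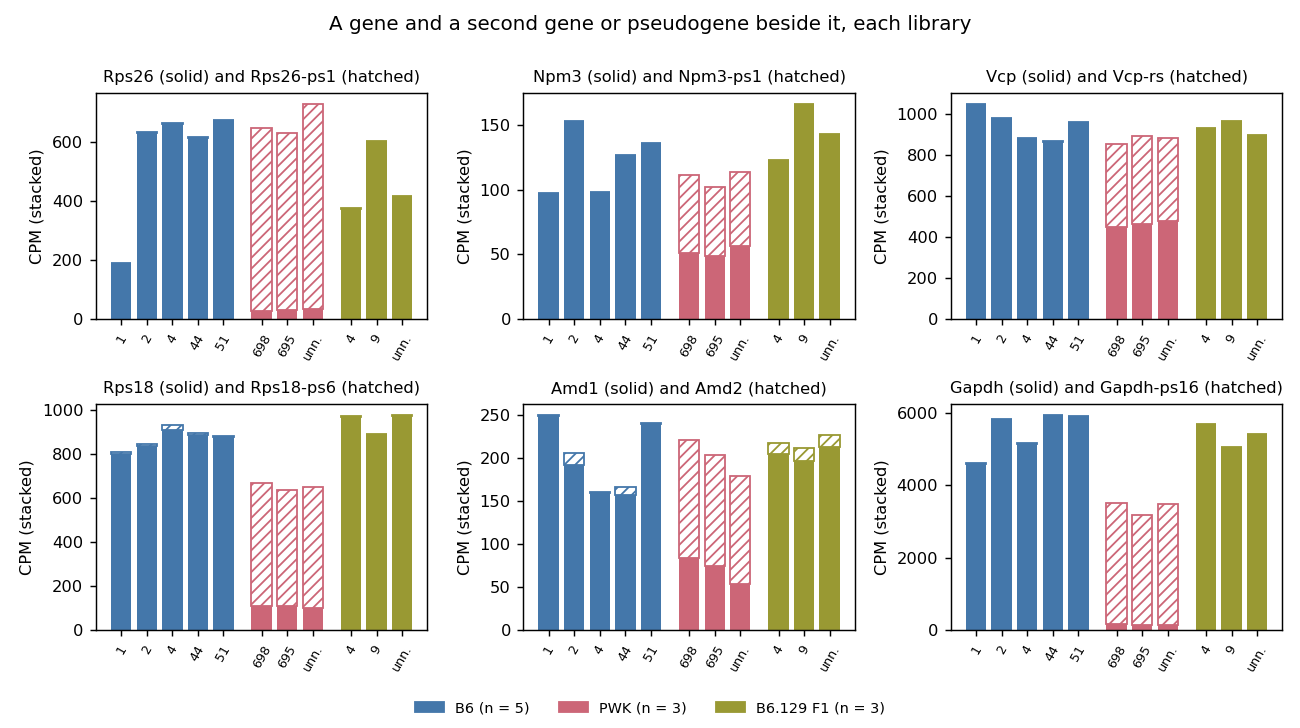
Stacked CPM of a gene (solid) and of a second gene or pseudogene (hatched) in each library (x axis, replicate label; unn., no matched number) of B6, PWK and B6.129 F1 cells, for 6 pairs. In the 3 PWK libraries most counts of the Rps26, Rps18, Amd and Gapdh pairs sit in the hatched part, and the hatched part is thin or absent in the other 8 libraries. Rps18-ps6 and Gapdh-ps16 are the RefSeq names of rows listed as Gm10260 and Gm3272.

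The 24 largest changes among genes without a named pseudogene, Eno1 and Amd2 included, were named by size, so their size is a description. With the feeder level as a covariate 23 of 24 still passed. In each of the 24, all 3 F1 libraries lay on the B6 side of the PWK range. That comparison shares the PWK libraries, and F1 cells carry B6 alleles. The 24 were picked for being called with PWK outside the B6 range, which favours both counts, so these too are a description. The share of all genes with F1 on the B6 side was not computed. Olig1, a bHLH factor of the oligodendrocyte lineage, had 36.5, 32.3, 47, 3.42 and 46.1 CPM in B6 and 0, 0.101 and 0.238 CPM in PWK (log2 change -8.17 ± 1.08, edgeR adjusted p = 0.000441). B6 44 was thus low among the B6 libraries, and the strains still did not overlap. Its chromosomal neighbour Olig2 was at the floor of 3 counts in every PWK library and had 2.68 ± 2.16 CPM in B6 (n = 5), at least 24.4-fold lower in PWK. Trh, which encodes thyrotropin-releasing hormone, had 83.3, 393, 311, 1139 and 491 CPM in B6 and 34.3, 38.3 and 31.3 CPM in PWK (log2 change -3.80 ± 0.78, edgeR adjusted p = 0.00547). Its B6 levels spanned a wide range, yet the lowest stood above every PWK library. Islr2, a membrane protein of growing axons, had 12.3 CPM in B6 and 0.911 CPM in PWK. Shisa6, an AMPA receptor auxiliary protein, had 59.1 CPM in B6 and 3.4 CPM in PWK. Slc39a8, a zinc and manganese importer, had 344, 155, 307, 277 and 148 CPM in B6 and 7.25, 11.2 and 9.2 CPM in PWK (log2 change -4.74 ± 0.36, edgeR adjusted p = 7.53e-06). Slc35d3, an orphan transporter of the nucleotide sugar family, had 28.6 CPM in B6 and 0.849 CPM in PWK. The peptide transporter Slc15a2 was at the floor in PWK and had 5.73 ± 2.82 CPM in B6 (n = 5), at least 52.1-fold lower in PWK. Cysltr1, a leukotriene receptor, had 11.7 CPM in B6 and 1.14 CPM in PWK. Mcc, a gene named for colorectal cancer, had 63.5 CPM in B6 and 5.69 CPM in PWK, and Adamts15, a matrix protease, 27.9 CPM in B6 and 2.74 CPM in PWK. Miip had 47.3, 50.7, 63.7, 61.2 and 57.6 CPM in B6 and 6.06, 4.98 and 3.85 CPM in PWK (log2 change -3.50 ± 0.17, edgeR adjusted p = 1.35e-07). The zinc finger gene Zfp605 had 13.7, 15.6, 11.8, 15.1 and 13.4 CPM and 0.707, 0.875 and 0.357 CPM (log2 change -4.41 ± 0.26, edgeR adjusted p = 7.94e-07). Both were even among the B6 libraries, and no library of one strain came near the other.

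Of the genes that rose, Htr7, a serotonin receptor coupled to cyclic AMP, had 0.831, 1.47, 0.478, 1.14 and 1.12 CPM in B6 and 117, 129.8 and 132 CPM in PWK (log2 change 6.96 ± 0.27, edgeR adjusted p = 3.36e-08). Plcg2, a phospholipase C best known from B cells, had 38.3, 44.3, 41.6, 39.6 and 42.7 CPM and 371, 373 and 353 CPM (log2 change 3.15 ± 0.066, edgeR adjusted p = 2.71e-10). Inpp5d, the inositol phosphatase SHIP1 of blood cells, had 0.435, 2.94, 0.956, 0.671 and 0.654 CPM and 31.7, 23.4 and 25.3 CPM (log2 change 4.57 ± 0.51, edgeR adjusted p = 0.000114). Arhgap45, a GTPase-activating protein, had 5.94 CPM in B6 and 73.6 CPM in PWK. The B6 levels of Htr7 and Inpp5d were low in every library, whereas Plcg2 was present in every B6 library and rose from there. P3h2, a collagen prolyl hydroxylase, had 5.0 CPM in B6 and 50.1 CPM in PWK, and Sned1, a matrix glycoprotein, 2.97 CPM in B6 and 25 CPM in PWK. Both passed too with the feeder covariate (log2 change 3.55 and 2.77, edgeR adjusted p = 4.02e-07 and 0.0106). Sfi1, a centrosomal protein, rose from 15.1, 12.1, 16.8, 8.59 and 7.38 CPM to 232, 233 and 219 CPM (log2 change 4.25 ± 0.24, edgeR adjusted p = 5.15e-07). Tmem144, a membrane protein, had 1.91 CPM in B6 and 25.1 CPM in PWK, and Fam171b 22.3 CPM in B6 and 189 CPM in PWK. Trim25, a ubiquitin ligase of antiviral RIG-I signalling, had 0.594, 9.29, 3.35, 22.1 and 47.4 CPM in B6 and 132, 237 and 213 CPM in PWK (log2 change 3.55 ± 1.13, edgeR adjusted p = 0.0419). Its B6 values were uneven, and its adjusted p was 0.391 with the covariate and 0.075 to 0.105 without 1 of the PWK libraries. Nnt, the mitochondrial transhydrogenase that is deleted in part in the C57BL/6J substrain, had 11.6 CPM in B6 and 29.8 CPM in PWK (log2 change 1.36 ± 0.31, edgeR adjusted p = 0.00819), and did not pass with the covariate (log2 change 0.83, edgeR adjusted p = 0.102). The labels give the strain only as C57BL/6.

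**Figure D3:**
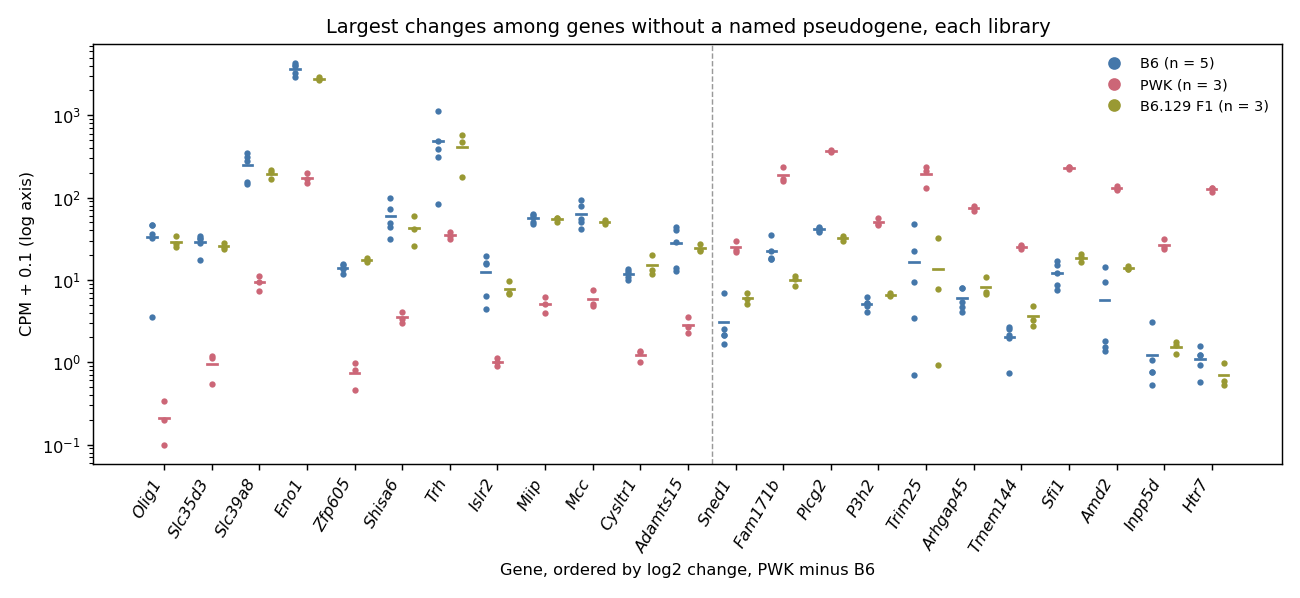
CPM plus 0.1 on a log axis in each library (points) with the group mean (line), for the 12 genes without a named pseudogene that fell most (left of the dashed line) and 11 of the 12 that rose most in PWK against B6. For example, Htr7 sits at 117, 129.8 and 132 CPM in the PWK libraries and at 0.831, 1.47, 0.478, 1.14 and 1.12 CPM in B6, and the B6.129 F1 points lie on the B6 side of PWK in all 23 genes drawn. The genes were picked for PWK libraries outside the B6 range.

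Some genes without a named pseudogene were at the floor in 1 strain. In B6, 17 genes were at the floor (3 counts or fewer in each library) with at least 1 CPM on average in PWK, and 19 were at the floor in PWK with at least 1 CPM in B6. Of the 17, 16 passed the test and 16 did not overlap between the strains. Of the 19, 15 passed and 10 did not overlap, since some B6 libraries were at the PWK level for the rest. The genes were picked by their level in each strain, which favours a call and no overlap, so these counts are a description. Over all genes without a named pseudogene, 25.1% passed and 30.7% did not overlap. The genes named next passed, with no overlap. Catspere2, a subunit of the sperm calcium channel complex, had 6.25, 4.61 and 5.71 CPM in PWK and was at the floor in B6, at least 49.1-fold higher. Ncf1, a subunit of the phagocyte NADPH oxidase, and Muc5b, a secreted mucin, were at least 25.9-fold and 22.7-fold higher in PWK. Cnga3, a cyclic nucleotide channel, and Ltb, lymphotoxin beta, were at least 19-fold and 25.2-fold lower. A level at the floor does not show that a gene is off, and whether PWK sequence changes keep its reads from being assigned was not tested.

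Chromatin accessibility of the same strains was measured by ATAC-seq, in which a transposase cuts open DNA, in 4 B6 and 2 PWK libraries with 4256551 to 9571127 counts in peaks. Of 137667 peaks, 1957 were higher and 5073 lower in PWK, or 5.11%. These counts rest in part on single libraries: without B6 1 they were 1001 and 2823, without B6 4 1004 and 2628. Leaving out the unnumbered PWK library gave 1640 and 2944. Peaks within 2 kb of the ends of a gene were joined to it for 12556 genes without a named pseudogene. A peak that was lower in PWK lay near 15% of the 532 genes that fell at least 2-fold, 2.77% of the 469 that rose at least 2-fold and 3.93% of all. A peak that was higher lay near 10.2% of those that rose, 1.13% of those that fell and 1.78% of all. The share with a higher peak among genes that rose was 3.77% without PWK BioRep698, 4.72% without B6 1, 5.19% without B6 4 and 6.51% without the unnumbered PWK library, against 0.854%, 0.79%, 0.831% and 1.27% of all. The share with a lower peak among genes that fell was 9.26% without B6 4, against 1.96% of all. The median peak change was 0.01 for called higher genes, -0.11 for called lower genes and -0.052 for all on the log2 scale. Across genes, which are not independent replicates, Spearman's rank correlation between the RNA change and the mean peak change was 0.11. The only build that the processing notes name is mm10, a B6 reference. Whether PWK sequence changes lowered RNA and peak counts together was not tested.

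Of the 24 genes with the largest changes, 12 had a peak over a promoter window, and at 6 of them a peak passed the test in the direction of the RNA. These genes were picked by their RNA change, and the share over the promoters of all genes was not computed. Within 2 kb of the gene ends, 3.93% of all genes had a lower peak and 1.78% a higher one. At Miip the promoter peak had 65.3, 60.8, 67.4 and 97.4 CPM in B6 replicates 1, 4, 44 and 51 and 15.3 and 18 CPM in PWK BioRep698 and the unnumbered PWK library (log2 change -2.12 ± 0.22, edgeR adjusted p = 6.18e-05). At Zfp605 it had 46.6, 51.8, 42.1 and 50.8 CPM and 1.08 and 6.83 CPM (log2 change -3.48 ± 0.40, edgeR adjusted p = 0.00015). At Slc39a8 it had 16.9, 22.4, 21 and 22.4 CPM and 10.4 and 9.79 CPM (log2 change -1.03 ± 0.24, edgeR adjusted p = 0.0176). The Tmem144 peak rose from 7.15, 4.79, 5.64 and 5.88 CPM to 18.7 and 16.6 CPM (log2 change 1.59 ± 0.27, edgeR adjusted p = 0.00293). The Trim25 peak rose from 1.91, 1.49, 2.56 and 2.01 CPM to 8.82 and 9.9 CPM (log2 change 2.26 ± 0.40, edgeR adjusted p = 0.00364). The groups did not overlap at any of these 5 peaks. The last was Arhgap45, where 1 of 2 promoter peaks rose (log2 change 1.32 ± 0.34, edgeR adjusted p = 0.0355). It passed without B6 44 but not without any 1 of the other 5 libraries (adjusted p 0.0726 to 0.125). The Slc39a8 peak did not pass without B6 4 or the unnumbered PWK library (adjusted p = 0.0731 and 0.117), and the other 4 passed whichever library was left out. The 1 peak within 2 kb of the ends of Slc39a8 was a different one, with a log2 change of 0.64, and did not pass. The Gapdh promoter peak had 26.6, 25.4, 31.5 and 43.5 CPM in B6 and 33.9 and 31.9 CPM in PWK (log2 change 0.051 ± 0.22, edgeR adjusted p = 0.941), beside an RNA change of -5.15. The peak at the Eno1 promoter had a log2 change of -0.60 (edgeR adjusted p = 0.107), that of Plcg2 0.20 (adjusted p = 0.867) and that of Htr7 -1.13 (adjusted p = 0.154), none past the test.

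**Figure D4:**
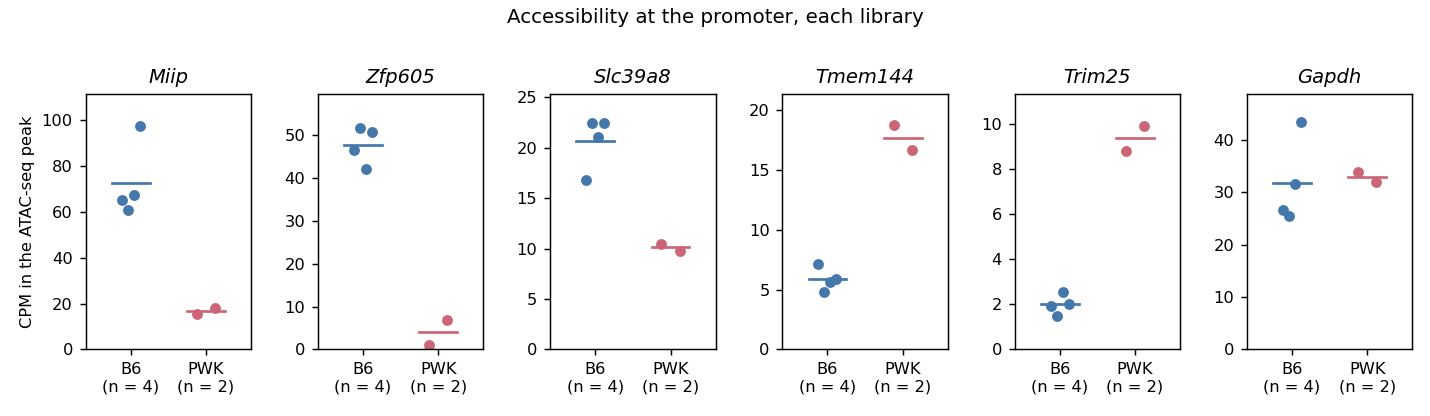
CPM in the ATAC-seq peak over the promoter in each library (points; line, mean; linear axis from 0) of 4 B6 and 2 PWK libraries, for 6 genes. The PWK points lie below all B6 points at Miip, Zfp605 and Slc39a8, above them at Tmem144 and Trim25, and within the B6 range at Gapdh.

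The promoter windows of these 6 genes are printed because accessibility was measured over them. Each runs from 250 bases before to 50 bases after a RefSeq transcript start in GRCm38.p6, 5′ to 3′ on the gene's strand. Capitals mark CCAAT (the letters bound by NF-Y), GGGCGG (the GC box) and TATAAA (the TATA box) on either strand, which can overlap each other.
Miip promoter, chr4:147868467-147868766, - strand: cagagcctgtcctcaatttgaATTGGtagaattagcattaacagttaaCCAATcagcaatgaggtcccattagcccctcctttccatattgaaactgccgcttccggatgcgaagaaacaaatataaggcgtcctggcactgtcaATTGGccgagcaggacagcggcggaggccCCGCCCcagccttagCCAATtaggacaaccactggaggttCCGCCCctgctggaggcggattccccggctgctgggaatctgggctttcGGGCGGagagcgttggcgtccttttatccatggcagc
Zfp605 promoter, chr5:110109842-110110141, + strand: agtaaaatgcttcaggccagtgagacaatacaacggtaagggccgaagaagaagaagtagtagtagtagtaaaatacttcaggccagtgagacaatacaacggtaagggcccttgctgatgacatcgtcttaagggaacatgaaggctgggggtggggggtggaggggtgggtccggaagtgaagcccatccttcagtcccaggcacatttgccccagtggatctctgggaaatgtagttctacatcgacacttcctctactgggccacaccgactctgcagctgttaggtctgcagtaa
Slc39a8 promoter, chr3:135825407-135825706, + strand: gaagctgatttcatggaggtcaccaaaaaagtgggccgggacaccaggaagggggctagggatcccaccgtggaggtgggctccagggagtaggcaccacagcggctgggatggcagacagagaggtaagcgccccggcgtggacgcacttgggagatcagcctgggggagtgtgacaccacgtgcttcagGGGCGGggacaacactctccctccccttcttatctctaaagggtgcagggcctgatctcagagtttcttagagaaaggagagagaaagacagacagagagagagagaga
Tmem144 promoter, chr3:79842630-79842929, - strand: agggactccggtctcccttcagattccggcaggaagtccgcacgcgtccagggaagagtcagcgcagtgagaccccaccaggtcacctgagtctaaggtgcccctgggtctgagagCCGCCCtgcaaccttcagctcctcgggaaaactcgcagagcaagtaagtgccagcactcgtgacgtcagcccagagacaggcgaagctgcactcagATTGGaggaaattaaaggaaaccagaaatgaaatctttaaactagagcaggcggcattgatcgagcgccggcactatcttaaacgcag
Trim25 promoter, chr11:88999153-88999452, + strand: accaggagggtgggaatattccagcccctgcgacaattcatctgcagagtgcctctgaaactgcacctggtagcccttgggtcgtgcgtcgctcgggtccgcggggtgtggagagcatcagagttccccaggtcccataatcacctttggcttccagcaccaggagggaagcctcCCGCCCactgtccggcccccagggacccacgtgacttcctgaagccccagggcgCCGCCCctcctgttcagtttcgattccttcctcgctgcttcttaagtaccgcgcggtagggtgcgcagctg
Gapdh promoter, chr6:125165724-125166023, - strand: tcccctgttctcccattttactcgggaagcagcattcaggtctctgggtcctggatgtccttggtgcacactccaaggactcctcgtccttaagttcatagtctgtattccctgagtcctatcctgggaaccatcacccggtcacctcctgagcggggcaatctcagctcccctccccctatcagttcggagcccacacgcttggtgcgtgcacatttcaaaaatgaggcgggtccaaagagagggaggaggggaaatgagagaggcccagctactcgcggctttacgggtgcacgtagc
Over all 32851 windows of the table, 37.4% hold CCAAT, 35.7% hold GGGCGG and 13.6% hold TATAAA. The Miip window holds 4 CCAAT and 3 GGGCGG, Tmem144 1 of each, Trim25 2 GGGCGG, Slc39a8 1 GGGCGG, and the Zfp605 and Gapdh windows none of the 3. These are letters of the B6 reference, and the PWK sequence was not analysed here.

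Genes for serine synthesis and the targets of ATF4, the transcription factor of the amino acid response, fell in PWK or did not pass: 0 were higher and 14 lower of 22 tested (63.6% changed), with a median log2 change of -0.64 against -0.0092 over all genes. Over all genes 26.5% changed, with 12% higher and 14.5% lower. Among the 21 without a named pseudogene, 0 were higher and 13 lower, against 10.8% and 14.4% of all such genes. Phgdh, the first enzyme of serine synthesis, which has a named pseudogene, had 341, 289, 462, 477 and 317 CPM in B6 and 119, 130.4 and 136 CPM in PWK (log2 change -1.55 ± 0.17, edgeR adjusted p = 9.23e-05). Chac1, a glutathione-degrading enzyme induced by ATF4, had 84.6 ± 24.4 CPM in B6 and 32.3 ± 3.05 CPM in PWK (log2 change -1.39 ± 0.22, edgeR adjusted p = 0.00108). Ddit4, an mTORC1 inhibitor, had 181 ± 64 CPM in B6 and 78.9 ± 6.73 CPM in PWK (log2 change -1.20 ± 0.29, edgeR adjusted p = 0.0116), and did not pass with the feeder covariate (log2 change -0.86, edgeR adjusted p = 0.139) or without PWK BioRep695 (adjusted p up to 0.0576). The summed level was 3041 to 3429.5 CPM in PWK and 4279.5 to 6402 CPM in B6. B6 51, the B6 library richest in feeder markers, was the lowest of the B6 libraries. B6 1, the B6 library poorest in them, had 5363 CPM, below B6 4 and B6 44 at 6161 and 6402 CPM. The F1 libraries, poor in feeder markers, had 5770.5 to 6794 CPM. Whether feeder content caused these levels was not tested. With the feeder covariate 8 genes were lower, and without PWK BioRep695 the count was 9.

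More glycolysis genes fell than rose: 1 was higher and 12 lower of 23 tested (56.5% changed). Among the 18 without a named pseudogene 1 was higher and 7 were lower. The 5 with a named pseudogene were Gapdh, Ldha, Pgk1, Pgam1 and Aldoa. Each was lower. Gapdh, Pgk1 and Pgam1 stayed lower when summed with their pseudogenes, whereas those of Ldha and Aldoa had at most 0.06 CPM, so summing could not change these genes. Aldoa did not pass without B6 44 or any single PWK library (adjusted p up to 0.0888). Beside Gapdh and Eno1, described above, Slc16a3, a lactate exporter, had 197 ± 73.2 CPM in B6 and 59.2 ± 13.6 CPM in PWK (log2 change -1.74 ± 0.37, edgeR adjusted p = 0.00691). Pfkfb3, which makes the activator of phosphofructokinase, had 61.9 ± 30.9 CPM in B6 and 23.6 ± 1.66 CPM in PWK (log2 change -1.39 ± 0.40, edgeR adjusted p = 0.0291). Hk1, a hexokinase, was the gene that rose, with 42.8 ± 8.11 CPM in B6 and 58.6 ± 0.122 CPM in PWK (log2 change 0.45 ± 0.14, edgeR adjusted p = 0.0335). With the feeder covariate 0 of the list were higher and 11 lower, and Hk1 (log2 change 0.22, edgeR adjusted p = 0.36) and Pfkfb3 (log2 change -0.59, edgeR adjusted p = 0.385) did not pass. Hk1 also lost its call without B6 2 or any single PWK library (adjusted p up to 0.0995), and Pfkfb3 without B6 1, 44 or any single PWK library (adjusted p up to 0.102). For the nuclear subunits of oxidative phosphorylation, 3 were higher and 13 lower of 77 tested (20.8% changed), against a background of 26.5% over all genes. Of the cytosolic ribosomal protein genes, 1 was higher and 42 lower of 84 tested (51.2% changed), and 19 have no named pseudogene, of which 8 were lower and 0 higher. The share of cell cycle genes that passed was near the 26.5% of all genes (12% higher and 14.5% lower), and the changes were small. In S phase 1 was higher and 7 lower of 26 tested (30.8% changed), among them Rrm2 (395 to 230.2 CPM, log2 change -0.78), a ribonucleotide reductase subunit. In M phase 0 were higher and 7 lower of 22 tested (31.8% changed), among them Kif11 (255 to 185 CPM, log2 change -0.47), a spindle motor. At a fold of at least 2, 0 S phase and 0 M phase genes were lower. Of the p53 targets and BCL2 family genes, 8 were higher and 1 lower of 24 tested (37.5% changed), with Cdkn1a (98.6 to 188 CPM, log2 change 0.93), the cell cycle inhibitor p21, and Eda2r (44.4 to 89.1 CPM, log2 change 1.00), a death receptor, among those that rose. Cdkn1a did not pass with the feeder covariate (log2 change 0.64, edgeR adjusted p = 0.0643). With it 2 were higher, and without PWK BioRep698 5.

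The clustered protocadherins, cell surface molecules whose alternative promoters are chosen at random in single neurons, rose more often than they fell. Of this list, 19 were higher and 3 lower of 46 tested (47.8% changed), with a median log2 change of 1.06, also when members at the floor are set to their bound. Pcdha8 was at 0 CPM in all B6 libraries and had 2.05, 2.79 and 1.35 CPM in PWK, at least 18.4-fold higher. Pcdhb8, at the floor in B6, was at least 7.88-fold higher at 1.0, 0.74 and 0.912 CPM in PWK. Pcdha6 had 0.198, 0.596, 0.257, 0.168 and 0.0769 CPM in B6 and 8.15, 11.2 and 11.1 CPM in PWK (log2 change 5.28 ± 0.64, edgeR adjusted p = 0.000203). Pcdha12, by contrast, fell from 4.0 to 1.5 CPM, and did not pass with the feeder covariate (log2 change -0.79, edgeR adjusted p = 0.172) or without PWK BioRep698 or the unnumbered PWK library (adjusted p up to 0.0717). These genes lie in 1 tandem array and are alike in sequence, and those of the alpha and gamma clusters share 3′ exons, so reads can be split between them. The summed level of the list was 327 to 372 CPM in PWK and 254 to 343 CPM in B6, which overlap. With the feeder covariate 7 were higher and with at least 10 counts required in every library 6. The zinc finger genes Zfp800 to Zfp999, mostly of the fast-evolving KRAB family, had members that changed in each direction: 13 were higher and 15 lower of 80 tested (35% changed), against 26.5% over all genes (12% higher and 14.5% lower). Zfp985 had 0.567 ± 0.841 CPM in B6 and 6.78 ± 0.777 CPM in PWK (log2 change 3.58 ± 0.78, edgeR adjusted p = 0.00695). Zfp976 had 6.51 ± 3.66 CPM in B6 and 1.27 ± 0.614 CPM in PWK (log2 change -2.35 ± 0.53, edgeR adjusted p = 0.00806). Both belong to families of close paralogs. The promoter peak of Zfp976 was lower too (log2 change -1.88), as were those of Zfp975 (-1.92) and Zfp811 (-3.22), whose RNA fell from 5.93 to 1.34 CPM and from 1.25 to 0.40 CPM. By contrast, that of Zfp982, a member with an RNA log2 change of 3.49, did not pass (log2 change 0.38, edgeR adjusted p = 0.846). The share of the list with a changed promoter peak was not computed. The Zfp976 peak did not pass without B6 1, B6 4, B6 51 or PWK BioRep698 (adjusted p up to 0.124). With the feeder covariate 10 of the list were higher and 5 lower, and Zfp985, Zfp976 and Zfp811 did not pass (edgeR adjusted p = 0.13, 0.0632 and 0.0893).

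Immune genes differed in single members. Of the MHC class I and antigen processing genes, 4 were higher and 6 lower of 27 tested (37% changed), against 26.5% over all genes. These counts were 2 and 6 with the feeder covariate. H2-K1, a classical class I chain, had 49.6 ± 11.4 CPM in B6 and 18.2 ± 5.66 CPM in PWK (log2 change -1.44 ± 0.25, edgeR adjusted p = 0.00176). Psmb10, an immunoproteasome subunit, had 9.21 ± 3.49 CPM in B6 and 1.65 ± 0.233 CPM in PWK (log2 change -2.48 ± 0.33, edgeR adjusted p = 0.000384). H2-Q6 was at the floor in B6 and had 2.23 CPM in PWK, at least 19.9-fold higher. The H2 genes are polymorphic and alike, so their counts are uncertain between strains. Of the interferon-stimulated genes, 7 were higher and 4 lower of 35 tested (31.4% changed), near the 26.5% over all genes. Ifit1, which binds foreign RNA, had 1.11, 11.1, 2.02, 4.86 and 18 CPM in B6 and 17.9, 90.2 and 52.5 CPM in PWK (log2 change 2.85 ± 0.83, edgeR adjusted p = 0.0304), and did not pass with the feeder covariate (log2 change 1.30, edgeR adjusted p = 0.245) or without B6 4, 44, PWK BioRep695 or the unnumbered PWK library (adjusted p up to 0.129). The summed level of that list was 855, 2020.0 and 1447 CPM in the PWK libraries and 727 to 998 CPM in B6, so PWK BioRep698 lay within the B6 range. Without PWK BioRep695, 0 of these genes were higher, and with the feeder covariate 0.

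In the signalling pathways that hold the primed state, a few members differed. Of the Nodal and Activin genes, 2 were higher and 3 lower of 21 tested (23.8% changed). The ligand Gdf3 fell, with 0.62 ± 0.222 CPM in B6 and 0.0997 ± 0.0782 CPM in PWK (log2 change -2.60 ± 0.56, edgeR adjusted p = 0.00657). Both levels were low, and the PWK mean lay under the 0.11 CPM that equals 3 counts per library. The co-receptor Tdgf1, which has a named pseudogene, fell, with 773 ± 230.2 CPM in B6 and 335 ± 3.91 CPM in PWK (log2 change -1.21 ± 0.22, edgeR adjusted p = 0.00267). Lefty2, a secreted Nodal inhibitor, rose, with 20.7 ± 9.81 CPM in B6 and 66.6 ± 11.1 CPM in PWK (log2 change 1.69 ± 0.33, edgeR adjusted p = 0.00407). Of the FGF genes, 1 was higher and 2 lower of 21 tested (14.3% changed). The feedback phosphatase Dusp6 had 519 ± 149.6 CPM in B6 and 247 ± 6.32 CPM in PWK (log2 change -1.07 ± 0.24, edgeR adjusted p = 0.00754), while the ETS target Etv4 fell to 68.8 from 118 CPM, and the receptor Fgfr2 rose to 10.4 from 4.41 CPM. Dusp6 (log2 change -0.83, edgeR adjusted p = 0.0839) and Fgfr2 (log2 change 1.27, edgeR adjusted p = 0.101) did not pass with the feeder covariate. Fgfr2 also lost its call without B6 2, 4, 44 or any single PWK library (adjusted p up to 0.111). Of the BMP genes, 3 were higher and 1 lower of 19 tested (21.1% changed). Nog, a secreted BMP antagonist, fell, with 5.11 ± 6.15 CPM in B6 and 0.406 ± 0.074 CPM in PWK (log2 change -3.64 ± 1.16, edgeR adjusted p = 0.0415). Its change was much smaller with the feeder covariate and did not pass (log2 change -0.83, edgeR adjusted p = 0.696), nor did it pass without B6 1, 4, 44, any single PWK library or any single F1 library (adjusted p up to 0.133). Msx1, a BMP target, rose, with 0.819 ± 0.273 CPM in B6 and 7.71 ± 1.56 CPM in PWK (log2 change 3.22 ± 0.27, edgeR adjusted p = 1.61e-05). Of the Wnt targets, 0 were higher and 2 lower of 14 tested (14.3% changed). Among them Lgr5, the R-spondin receptor, had 36 ± 31.8 CPM in B6 and 4.24 ± 1.91 CPM in PWK (log2 change -3.08 ± 0.83, edgeR adjusted p = 0.0214). Its change was smaller and did not pass with the feeder covariate (log2 change -0.79, edgeR adjusted p = 0.336), nor did it pass without any single PWK library (adjusted p up to 0.0854). The shares of these 4 lists lay below the background of 26.5%. With the covariate the BMP list had 2 higher and 0 lower, the FGF list 0 and 2, and the Wnt targets 0 and 1. Of the primed and general pluripotency genes, 1 was higher and 3 lower of 24 tested (16.7% changed), and 5 were lower with the covariate. Of the neuroectoderm markers, 0 were higher and 5 lower of 13 tested (38.5% changed). Beside Olig1 and Olig2, the forebrain factor Six3 had 6.98 ± 8.08 CPM in B6 and 0.37 ± 0.215 CPM in PWK (log2 change -4.21 ± 1.39, edgeR adjusted p = 0.047). Six3 lost its call with the feeder covariate (log2 change -0.82, edgeR adjusted p = 0.764) and without B6 1, 4, 44, any single PWK library or any single F1 library (adjusted p up to 0.148). That neuroectoderm count was 2 when only B6 and PWK were fitted and without B6 44 3. Imprinted genes, expressed from 1 parental allele, held 7 higher and 4 lower of 37 (29.7% changed), near the 26.5% over all genes, and 4 higher and 2 lower with the covariate. Among them were Dlk1 (2.46 to 5.84 CPM, log2 change 1.25) and Grb10 (688 to 319 CPM, log2 change -1.11). Neither passed with the covariate (Dlk1, log2 change 0.47, edgeR adjusted p = 0.571; Grb10, log2 change -0.53, edgeR adjusted p = 0.0633), and Dlk1 lost its call without B6 4, 51, any single PWK library or any single F1 library (adjusted p up to 0.143).

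**Figure D5:**
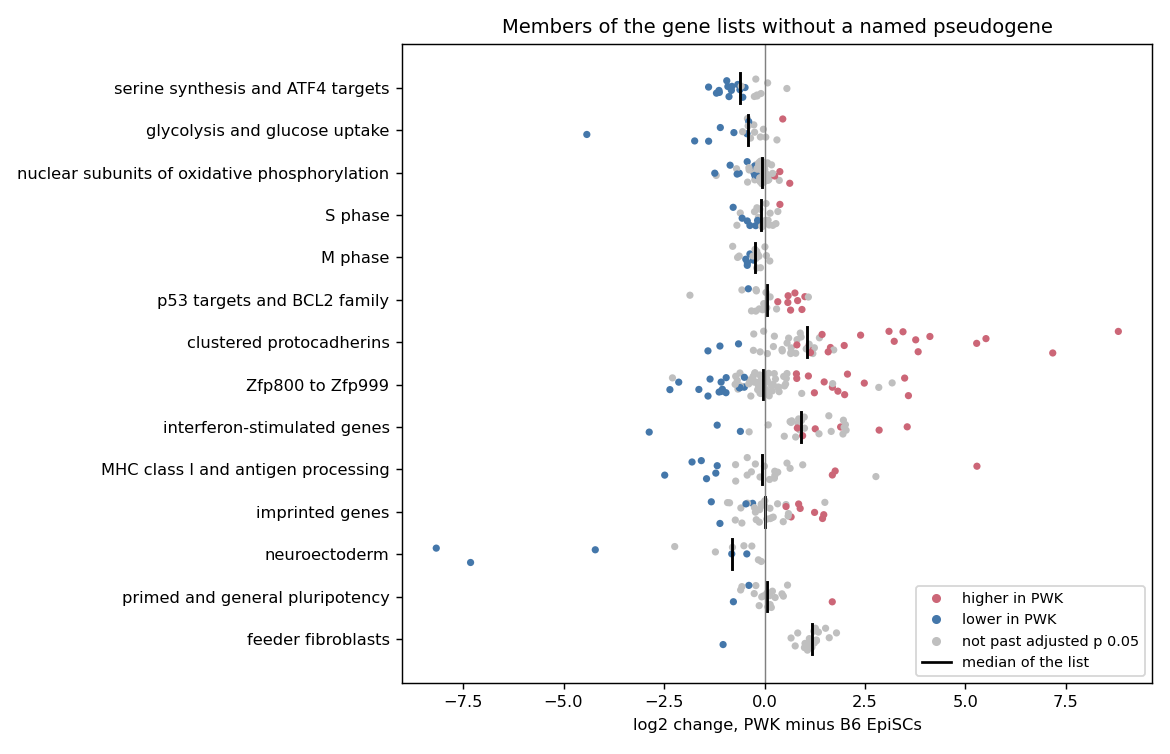
Log2 change between PWK and B6 (x axis) of each tested member without a named pseudogene of 14 gene lists (rows; vertical jitter has no meaning), coloured by whether it passed an edgeR adjusted p of 0.05; black line, median of the list. The serine and ATF4 list has 13 lower and 0 higher members, the protocadherins 19 higher and 3 lower, and 20 of 21 feeder markers lie to the right of 0, none of them past the test.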

How the data were processed

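RNA-seq of the epiblast stem cells was taken from the gene table of raw read counts, and ATAC-seq from a table of counts in peaks. Both are whole-number counts as deposited by the authors. The submitters' processing notes name fastp, Salmon, featureCounts, Bowtie2, MACS2, DESeq2 and the build mm10 with no version or role, and whether counting used strand or how reads matching several places were treated is not given in the sources used here. Columns were matched to samples by their names. The peak table also holds 17 columns that match no sample of the series, which were not used. An unnumbered library is matched to its strain only.

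Counts of 11 libraries (5 B6, 3 PWK and 3 B6.129 F1) entered 1 fit with edgeR 4.0.16 in R 4.3.3 (filterByExpr, TMM, robust quasi-likelihood test, Benjamini-Hochberg adjustment over all 14822 genes left of 29555). DESeq2 1.42.0 was an alternative, and the gene test was tested on simulated data. A gene was called at an adjusted p under 0.05. Where a group had at most 3 counts in each library, its fold is a bound set at 3 counts per library. Of 16 replicate pairs compared, none agreed within sampling noise. Classes come from RefSeq (GRCm38.p6): 26474 rows matched an entry, and a family is a gene with the pseudogenes named after it. The class without a named pseudogene was narrowed to protein-coding genes after a first fit had been seen. Peaks were fitted in the same way, and whether peak starts count from 0 or 1 is not stated.

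The genes named are the 12 largest called changes in each direction without a named pseudogene, 4 in each direction with one and 4 in each direction among pseudogenes, at a mean log2 CPM of at least 3, with no overlap between strains and no gene model name. To these were added up to 3 called members per direction of each gene list and 12 markers. Npm3, Vcp, Rps2, Tpm3, Rpl7a and the pseudogenes and gene models beside them, the glycolysis genes with a pseudogene, Eno1b, Amd1, Hmga1, Hmga1b, the mitochondrial genes, Slc15a2, Nnt, Catspere2, Ncf1, Muc5b, Cnga3, Ltb, Phgdh, Pcdha6, H2-K1 and Tdgf1 fall outside this rule and were chosen after their values were seen. One gene that the rule chose is not reported here. The comparison and the gene lists were chosen with earlier results of these data known. Figures were drawn with matplotlib 3.10.9 in Python 3.11.15.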

Additional observations from a re-analysis of the deposited data

Results flagged for a closer look

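Among 158 quantities tested over the 5 B6 libraries (121 genes, 32 summed gene lists and the shares of counts by gene class), 18 had 1 library far from the other 4 by Dixon's test. Chance flags about 1 in 20 groups. PWK, with 3 libraries, was not tested in this way.

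B6 1 stood apart for 6 quantities. Rps26 was at 189.2 CPM there against 613.7 CPM in the nearest library, and Utf1, a pluripotency factor, at 92.92 CPM against 210.1 CPM. Rps12-ps3 was at 402.8 CPM against 339.5 CPM and mt-Co2 at 1745 CPM against 1031 CPM. The Wnt target list summed to 1173 CPM against 918.5 CPM, and rows of no named class took 0.6937% of the counts against 0.842%.

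In B6 2, Mid1 was at 57.62 CPM against 207.9 CPM in the nearest library and Tpm3 at 447.1 CPM against 704.1 CPM. The same library was high for Inpp5d (2.939 CPM against 0.9563 CPM), Sned1 (6.791 CPM against 2.423 CPM) and Zfp985 (2.065 CPM against 0.2684 CPM). In B6 51, the B6 library richest in feeder markers, Cdkn1a was at 152.6 CPM against 98.94 CPM, Fam171b at 35.38 CPM against 22.16 CPM and mt-Cytb at 3955 CPM against 3361 CPM. The list of glutathione genes summed to 1154 CPM there against 896.1 CPM, and Rpl17-ps5 was at 0.1923 CPM against 0 CPM. Rps12-ps10 was at 0.1677 CPM in B6 44 against 0.03957 CPM, and Gm10260, which RefSeq names Rps18-ps6, at 23.72 CPM in B6 4 against 8.756 CPM.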

How the results depend on the processing

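No paired analysis was possible because the B6 and PWK libraries share no replicate number. Over the 140 named genes that passed, no alternative changed a sign. With the feeder level as a covariate, which was added after seeing the data and is itself higher in PWK, 86 of the 140 passed and 54 did not, and leaving out 1 library lost 2 to 30 of them.

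The counts over all genes were 1781 higher and 2142 lower. At a fold of at least 2 they were 890 and 694, and with the covariate 1050 and 1311. Leaving out 1 library gave 1126 to 2428 higher and 1317 to 2476 lower. For genes without a named pseudogene the counts were 585 and 592 at a fold of at least 2, 791 and 1147 with the covariate, and 830 to 2073 higher and 1164 to 2256 lower with 1 library left out.

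Among the gene lists, a fold of at least 2 left 5 lower for ATF4 and serine, 6 for glycolysis, 14 for cytosolic ribosomal proteins, 9 for the zinc finger genes, 3 for neuroectoderm and 0 for S phase and for M phase, and 1 higher for the p53 targets. The covariate left 8 lower for ATF4, 5 for the zinc finger genes and 4 for M phase, and 7 higher for protocadherins, 2 for the p53 targets and 0 for interferon. With at least 10 counts in every library, 6 protocadherins were higher and 2 neuroectoderm genes lower, and with no filter 4 interferon genes were higher. With only B6 and PWK fitted, 2 neuroectoderm and 4 S phase genes were lower. With 1 library left out, the lower counts were 9 to 16 for ATF4, 2 to 5 for neuroectoderm, 4 to 9 for S phase, 4 to 9 for M phase and 9 to 18 for the zinc finger genes, and the higher counts 12 to 26 for protocadherins, 5 to 10 for the p53 targets and 0 to 10 for interferon. Families higher as a sum were 17, 8 with the covariate and 11 to 24 with 1 library left out. The cause of these shifts was not tested.

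The median accessibility of peaks near higher genes minus that near lower genes was 0.12 on the log2 scale, 0.153 over all peaks in the gene or within 2 kb, and 0.115 to 0.127 with 1 library left out. Markers that had not passed changed sign in 2 kinds of alternative. With the covariate the log2 change was 0.099 for Cxcr4, -0.037 for Nanog, 0.18 for Otx2, 0.50 for Sox17 and 0.32 for T. Sox2, lower but not past the test at -0.56, passed with the covariate at -1.08 (edgeR adjusted p = 0.0359). Utf1, at -0.021, became 0.038 when scaled to the total count, 0.0051 when only genes without a named pseudogene were fitted, and -0.23 to 0.062 with 1 library left out. Genes under about 0.11 CPM lie at the floor of 3 counts.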

Other observations

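Glutathione genes, which conjugate and recycle the cell's main thiol, changed in both directions, with 3 higher and 5 lower of 26 tested (30.8%, against 26.5% over all genes). Gstz1, an enzyme of tyrosine breakdown, rose from 18.2 to 67.8 CPM (log2 change 1.89, edgeR adjusted p = 8.78e-05). Gstm7 fell from 4.25 to 0.586 CPM and Gstm4 rose from 1.70 to 3.51 CPM. The Gstm genes are close paralogs in 1 cluster, so their counts are uncertain between strains. The feeder covariate left 1 higher and 3 lower in this list, and Gstm4 did not pass with it (edgeR adjusted p = 0.0881) or without PWK BioRep698 or the unnumbered PWK library. Visceral endoderm markers held 2 higher and 1 lower of 11 tested (27.3%, near the 26.5% over all genes). Among them Lrp2, the endocytic receptor megalin, fell from 134 to 31.4 CPM (log2 change -2.09), while Dab2, an endocytic adaptor, rose from 10.6 to 25.5 CPM. The list of definitive endoderm markers summed to 267 to 359 CPM in PWK and 617 to 1589 CPM in B6, with 0 higher and 1 lower of 16 tested (6.25%, below the 26.5% over all genes). That 1 gene was Trh, which is also the most abundant of the list in B6. The median log2 change of the list was -1.04, and 0.53 with the feeder covariate, where 0 were higher and 1 lower.

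Of the chromatin genes, 2 of 32 Polycomb members were higher and 4 lower, below the background share. Phf19, a Polycomb accessory protein, fell from 9.90 to 4.40 CPM, and Bmi1, a subunit of the first Polycomb complex, rose from 8.98 to 14.9 CPM. Neither passed with the feeder covariate (edgeR adjusted p = 0.104 and 0.066). Zfp57, which protects imprints from demethylation, fell from 68.6 to 33.5 CPM (log2 change -1.03, edgeR adjusted p = 0.00189). Tdrkh, a piRNA pathway protein, fell from 12.5 to 3.13 CPM. Of the replication-dependent histone genes, 4 were higher and 1 lower of 36 tested (13.9%, below the 26.5% over all genes). All were at low levels, with Hist4h4 at 0.754 CPM in B6 and 3.52 CPM in PWK. With the covariate 1 histone gene was higher and 1 lower.

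The summed level of 8 Y-linked genes, of which 4 were tested, was 40.9 to 214 CPM in B6 and 235 to 303 CPM in PWK. It was 2.11 CPM in the unnumbered B6.129 F1 library, where the other F1 libraries had 86.7 and 95.8 CPM.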
